A study of Homo sapiens with 6 samples.

Results

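The genes described here make, sense, take up, store and export cholesterol. They are 32 genes chosen by symbol among the 60623 genes in the files, and each symbol matched 1 gene. There were 19 synthesis enzymes, 8 of the mevalonate arm and 11 of the sterol arm. The other 13 were 4 genes around the transcription factor SREBP2, 7 genes of uptake, transport and storage, and 2 efflux pumps. RNA was sequenced from cells differentiated towards hepatocytes and called hepatoblasts at day 19 in the labels. They came from H9, an established human embryonic stem cell line. The control group was 3 libraries of cells given 0.1% DMSO, the vehicle. The treated group was 3 libraries of cells exposed to HFPO-TA, short for hexafluoropropylene oxide trimer acid. This compound is a perfluorinated ether acid, and the series is about its toxicity to the liver. The label prints the dose as 10 with a unit that is not legible as a real one, and it names DMSO for the controls alone. The duration of exposure is not given in the sources used here. All libraries derive from 1 cell line, and no label says that replicates were cultured separately, so the spread behind the p-values may be technical only.

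Cells build cholesterol from acetyl-CoA. The mevalonate arm makes farnesyl diphosphate, which the sterol arm joins into squalene, closes into lanosterol and trims to cholesterol. When sterol in the endoplasmic reticulum is low, SCAP escorts the SREBP2 precursor to the Golgi, where it is cut to release a transcription factor that switches on the enzymes of both arms. When sterol is high, the INSIG proteins hold SCAP back, and oxysterols activate the LXR receptors, which switch on the efflux pumps ABCA1 and ABCG1. The liver both makes cholesterol and clears it from the body.

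The genes SREBP2 switches on carry sterol regulatory elements in their promoters, often beside CCAAT boxes bound by NF-Y. A promoter window of RefSeq, taken as the 250 bases before the start in GRCh38.p14, was found for 26 of the 32 genes. The letters TCACNCNAC, a form of the sterol regulatory element, were searched on both strands and occurred in 3 of the 26, FDPS, HSD17B7 and SREBF2 (11.5%), against 2.48% of 27305 genes. The letters CCAAT, also on both strands, occurred in 20 of the 26 (76.9%), against 37.0% of all genes. These matches are a description of letters, not of binding, and the element is known in other spellings and at other distances. The stretches below are shown because FDPS, TM7SF2, INSIG1 and ABCA1 had the smallest p of the mevalonate, sterol, SREBP2 control and efflux genes, and SREBF2 encodes the regulator itself. They run 5′ to 3′ on the gene's strand and end before the first annotated transcript. Capitals mark TCACNCNAC (9 letters) and CCAAT or its reverse ATTGG (5 letters), and no printed match overlaps another. FDPS is chr1:155308616-155308747, TM7SF2 chr11:65111622-65111844, SREBF2 chr22:41832855-41833078 and INSIG1 chr7:155297628-155297775, all on the plus strand, and ABCA1 is chr9:104928238-104928405 on the minus strand.
FDPS: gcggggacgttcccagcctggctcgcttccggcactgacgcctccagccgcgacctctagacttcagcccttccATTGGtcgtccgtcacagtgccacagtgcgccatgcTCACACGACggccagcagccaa
TM7SF2: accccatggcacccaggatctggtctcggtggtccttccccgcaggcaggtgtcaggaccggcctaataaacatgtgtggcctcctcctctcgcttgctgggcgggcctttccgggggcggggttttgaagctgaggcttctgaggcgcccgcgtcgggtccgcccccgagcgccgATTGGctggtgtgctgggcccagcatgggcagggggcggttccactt
SREBF2: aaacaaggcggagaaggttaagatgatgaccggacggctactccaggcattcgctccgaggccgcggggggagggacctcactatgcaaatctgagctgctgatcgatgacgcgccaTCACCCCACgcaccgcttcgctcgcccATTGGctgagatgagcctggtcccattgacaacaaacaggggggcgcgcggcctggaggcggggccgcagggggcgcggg
INSIG1: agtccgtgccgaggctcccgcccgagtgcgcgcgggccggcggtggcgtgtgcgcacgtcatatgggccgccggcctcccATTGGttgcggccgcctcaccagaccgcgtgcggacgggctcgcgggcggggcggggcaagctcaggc
ABCA1: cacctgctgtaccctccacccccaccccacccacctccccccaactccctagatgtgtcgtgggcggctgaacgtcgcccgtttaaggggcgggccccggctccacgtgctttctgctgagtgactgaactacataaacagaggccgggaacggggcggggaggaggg
The stretches are shorter than the 250 bases searched above, that of FDPS holding 132. FDPS and SREBF2 each showed 1 match to the sterol element and 1 CCAAT box in these stretches. A further CCAAT match of FDPS, at -122 from the RefSeq start, is cut by the end of its stretch and is not marked. TM7SF2 and INSIG1 showed 1 CCAAT box each and no sterol element in this spelling. ABCA1, which LXR rather than SREBP2 is known to control, showed neither.

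The values are in TPM, a measure of transcript abundance scaled for gene length, so levels can be compared between genes. Each library summed to between 995690 and 996186 TPM and had 15383 to 15905 genes at 1 TPM or more. Sequencing depth cannot be read from TPM. The hepatoblast and hepatocyte list, which AFP dominates, summed to between 89712 and 100929 TPM with DMSO and between 78693 and 83017 with HFPO-TA. Of its 10 genes 3 passed the test (FGA, FGB and FGG, all lower), against 0.492% of all tested genes. In 6 of the 10 all HFPO-TA libraries lay below all DMSO libraries and in 1 above, against 9.4% and 8.55% of all tested genes. That 1 was APOA2, at 5287 ± 666 and 8253 ± 1042 TPM, while DLK1, KRT8 and KRT18 overlapped. Of 4 intestinal genes 1 passed (RBP2, higher). The intestinal list summed to between 548 and 579 TPM with DMSO and between 1222 and 1706 with HFPO-TA. RBP2, at 290 ± 11.6 and 1235 ± 248 TPM, dominates that difference. CDX2 (61.6 and 58.5 TPM) and VIL1 (211 and 198) overlapped, and FABP2 was higher at 1.34 and 4.40 TPM. No biliary, stromal, endothelial, pluripotent or neural marker passed the test. The stromal list summed to 1659 and 1829 TPM in replicate 1 of DMSO and HFPO-TA, and to between 855 and 1217 in the other 4 libraries. Blood markers summed to at most 0.78 TPM, with HBG1 at 0 throughout. The part of these differences in the results below was not tested.

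The cholesterol genes were expressed throughout, and all 32 passed the filter of at least 1 TPM in 3 libraries. With DMSO, 14 of them had a mean of 100 TPM or more, 12 of these being synthesis enzymes. MSMO1, which removes methyl groups from the sterol nucleus, stood highest at 891 ± 27.5 TPM (SD, n = 3), followed by FDPS at 387 ± 17.4, HMGCS1 at 267 ± 8.12 and SCARB1 at 265 ± 21.4. The lowest were ABCG1 at 6.18 ± 1.22 TPM and NPC1L1, whose highest DMSO library stood at 5.69 TPM. Within the mevalonate arm the kinases MVK (18.3 ± 0.88 TPM) and PMVK (31.0 ± 1.43) lay below HMGCS1 and MVD (155 ± 14.2), which act before and after them.

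No cholesterol gene passed the test. limma, fitted on log2(TPM + 1) over 15664 genes, called 0 of the 32 at an adjusted p under 0.05, against 0.492% of all tested genes (77 genes). Unadjusted p was under 0.05 for 9 of the 32, 1 with HFPO-TA above DMSO and 8 below it, against 12.0% of all tested genes (5.45% above and 6.56% below). In 11 of the 32 the 3 HFPO-TA libraries did not overlap the 3 DMSO libraries, 2 higher and 9 lower, against 17.9% of all tested genes (8.55% higher and 9.4% lower). Log2 fold changes, HFPO-TA minus DMSO, ran from -0.27 (TM7SF2) to 0.32 (INSIG1), and the 95% intervals, each for its own gene, ran from -0.66 (ABCG1) to 0.57 (NPC1) at their ends. A change of 2 times in either direction, which is 1 on this scale, lay outside the interval of each of the 32. The genes called over the whole table differed by at least 0.35 on this scale, more than any of the 32. In bulk RNA, fewer cells of a type and less RNA per cell cannot be told apart.

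**Figure D1:**
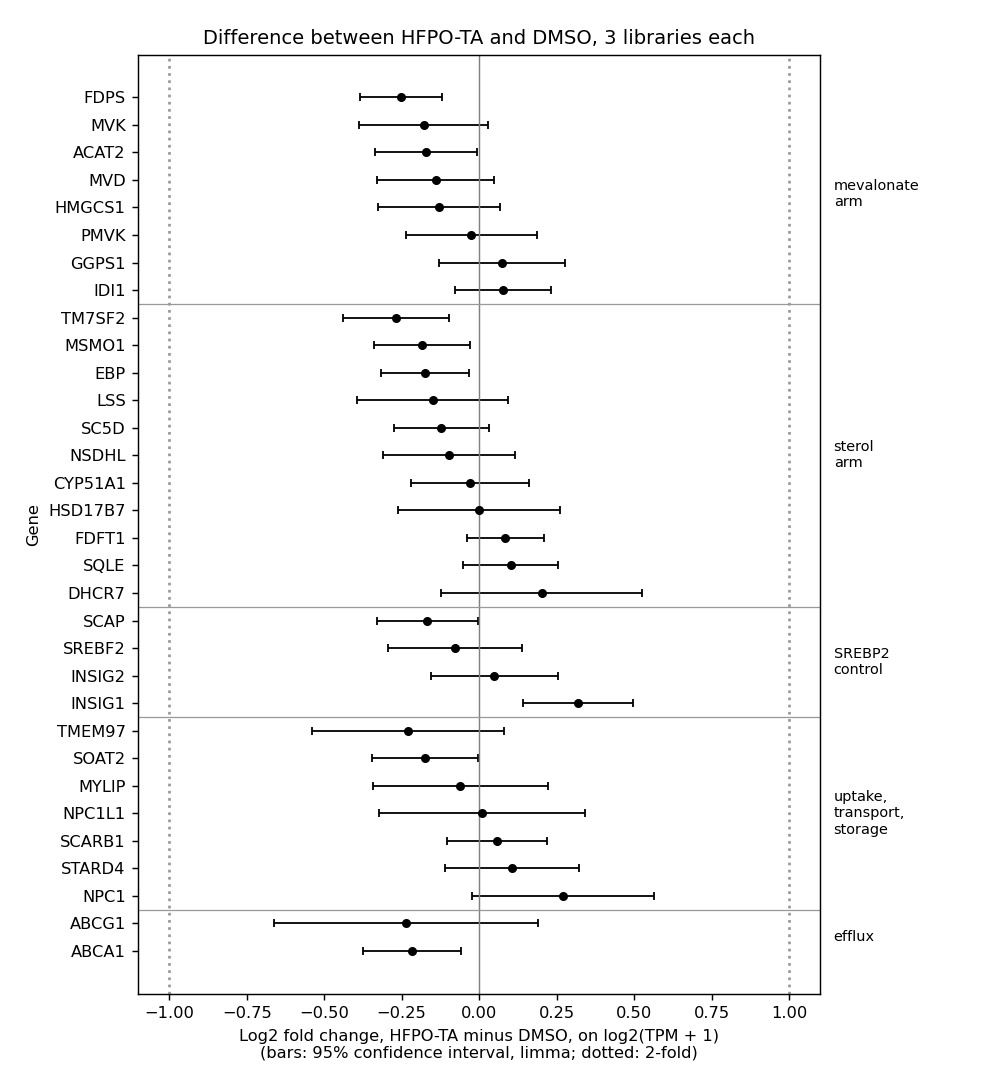
Log2 fold change of each gene (HFPO-TA minus DMSO on log2(TPM + 1)) with its 95% confidence interval from limma, grouped by role, with dotted lines at 2-fold. The points lie between -0.27 and 0.32, and every interval stays within the dotted lines.

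The synthesis enzymes were for the most part slightly lower with HFPO-TA, and none passed the test. Of the 19, 14 lay below 0 and 5 above it, with a median log2 fold change of -0.12. HSD17B7, one of the 14, stood at -0.0003. The median was -0.07 without HFPO-TA replicate 2 and -0.18 without HFPO-TA replicate 1. The other 13 genes had a median of -0.06, with 7 below 0, and all tested genes had a median of -0.01, with 51.7% below 0. The 19 synthesis enzymes summed to 3392, 3313 and 3300 TPM in the 3 DMSO libraries. In the 3 HFPO-TA libraries they summed to 3319, 3015 and 2985 TPM. HFPO-TA replicate 1 thus lay within the DMSO range, and replicates 2 and 3 lay below it.

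In the mevalonate arm 6 of 8 enzymes lay below 0, with a median of -0.13. FDPS, which makes farnesyl diphosphate, stood at 371, 406 and 383 TPM with DMSO and at 338, 322 and 314 TPM with HFPO-TA. Each HFPO-TA library lay below each DMSO library. The log2 fold change was -0.25 (SE 0.06, 95% interval -0.38 to -0.12), the smallest p among the 32, and limma's adjusted p was 0.12. FDPS lies on chromosome 1 from 155308748 to 155320666 (GENCODE 29, GRCh38) and shares 693 exon bases with RUSC1-AS1, an antisense gene at 9.09 and 8.82 TPM. ACAT2, the cytosolic thiolase at the head of the arm, stood at 85.8, 83.2 and 84.0 TPM with DMSO and at 81.0, 73.3 and 70.3 with HFPO-TA (-0.17, SE 0.07, limma's adjusted p = 0.391). Its groups did not overlap either, but ACAT2 shares 397 exon bases with TCP1 on the opposite strand, at 179 and 213 TPM, and 1141 with SOD2, at 22.6 and 25.1 TPM. Whether the counting used strand is not given in the sources used here, so the value of ACAT2 is uncertain.

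MVK, which phosphorylates mevalonate, stood at 18.8, 17.2 and 18.8 TPM with DMSO and at 16.5, 16.3 and 15.2 with HFPO-TA, without overlap (-0.18, SE 0.09, limma's adjusted p = 0.484). MVK shares 306 exon bases with MMAB on the opposite strand, at 40.0 and 38.1 TPM. HMGCS1, the HMG-CoA synthase, stood at 267 ± 8.12 and 245 ± 29.1 TPM and MVD, the decarboxylase, at 155 ± 14.2 and 140 ± 7.77, with overlapping groups. PMVK, the next kinase, was near equal at 31.0 ± 1.43 and 30.6 ± 2.92 TPM. IDI1, which isomerises isopentenyl diphosphate, stood at 151 ± 11.0 and 159 ± 0.88 TPM. GGPS1, which diverts farnesyl diphosphate towards protein prenylation, stood at 19.4 ± 0.64 and 20.5 ± 1.29 TPM. IDI1 and GGPS1 were the 2 enzymes of this arm above 0, and GGPS1 shares 1422 exon bases with TBCE on the same strand, at 3.76 and 3.02 TPM.

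In the sterol arm 8 of 11 enzymes lay below 0, with a median of -0.10. TM7SF2, a sterol reductase, stood at 113, 107 and 124 TPM with DMSO and at 95.9, 98.7 and 90.1 with HFPO-TA. Its groups did not overlap, and its log2 fold change of -0.27 was the lowest of the 32 (SE 0.07, 95% interval -0.44 to -0.10, limma's adjusted p = 0.201). TM7SF2 shares 16 exon bases with VPS51 on the same strand, at 68.3 and 55.7 TPM. EBP, a sterol isomerase, stood at 219, 200 and 225 TPM with DMSO and at 193, 188 and 189 with HFPO-TA (-0.17, SE 0.06, limma's adjusted p = 0.304). The 3 HFPO-TA values of EBP lay closely together and below the DMSO range. MSMO1, the most abundant of the 32, stood at 914, 899 and 861 TPM with DMSO and at 862, 746 and 749 with HFPO-TA (-0.18, SE 0.07, limma's adjusted p = 0.317). HFPO-TA replicate 1 of MSMO1 lay just inside the DMSO range and the other 2 well below it. Without HFPO-TA replicate 1 MSMO1 passed (-0.25, limma's adjusted p = 0.0491), in a fit that called 1.86% of all genes.

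Neighbouring steps of the arm lay on both sides of 0, and none of those that follow passed the test. FDFT1 and SQLE, which make and oxidise squalene, lay above 0. FDFT1 averaged 233 ± 5.23 TPM with DMSO and 247 ± 8.31 with HFPO-TA, and SQLE averaged 111 ± 6.27 and 119 ± 4.58. The groups of FDFT1 did not overlap, its lowest HFPO-TA value (237.59 TPM) being next to its highest DMSO value (237.52 TPM). LSS, which closes the ring system, stood at 78.5 ± 5.16 and 71.0 ± 10.1 TPM and CYP51A1, the first demethylase on lanosterol, at 182 ± 8.26 and 178 ± 18.3. NSDHL stood at 48.2 ± 2.99 and 45.0 ± 4.53 TPM and HSD17B7 at 20.9 ± 0.61 and 21.0 ± 3.13; both act with MSMO1 in removing methyl groups. HSD17B7 is 98.4% identical over 1033 bases to HSD17B7P2, which averaged at most 0.02 TPM, and 98.6% identical over 207 bases to AL117339.5, at 8.23 and 3.47 TPM. Reads of HSD17B7 may be shared with these copies, and its value is uncertain. SC5D, a late desaturase, stood at 148 ± 9.47 and 135 ± 4.43 TPM, without overlap. DHCR7, the last reductase of its branch, stood at 212, 156 and 177 TPM with DMSO and at 245, 186 and 194 with HFPO-TA. Replicate 1 was the highest library of each group for DHCR7, and its log2 fold change was 0.20 (SE 0.14, limma's adjusted p = 0.642). It was 0.08 without HFPO-TA replicate 1 and 0.32 without DMSO replicate 1.

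Of the 4 SREBP2 control genes 2 lay above 0 and 2 below, with a median of -0.01, and none passed the test. INSIG1, which retains SCAP in the endoplasmic reticulum and is itself switched on by SREBP2, stood at 189, 156 and 165 TPM with DMSO and at 212, 216 and 206 with HFPO-TA. All 3 HFPO-TA libraries lay above the DMSO range, and the HFPO-TA values were the tighter set (SD 4.87 against 16.8 TPM). The log2 fold change of 0.32 was the highest of the 32 (SE 0.08, 95% interval 0.14 to 0.50), with limma's adjusted p = 0.139. INSIG1 lies on chromosome 7 from 155297776 to 155310235 (GENCODE 29, GRCh38). INSIG2, its paralog, stood at 18.5 ± 0.90 and 19.2 ± 0.96 TPM, a level far below that of INSIG1, with a log2 fold change of 0.05 (95% interval -0.16 to 0.25). Whether INSIG1 and INSIG2 differ in their response was not tested.

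SCAP, the escort, stood at 93.0, 83.4 and 85.3 TPM with DMSO and at 80.8, 73.6 and 78.2 with HFPO-TA, without overlap (-0.17, SE 0.07, limma's adjusted p = 0.407). SREBF2, which encodes SREBP2, stood at 76.8, 64.3 and 70.7 TPM with DMSO and at 74.0, 63.3 and 63.4 with HFPO-TA (-0.08, SE 0.09, limma's adjusted p = 0.814). The groups of SREBF2 overlapped over most of their range, and its 95% interval of -0.29 to 0.14 holds 0. The mRNA level does not show how much SREBP2 protein was cut and active.

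**Figure D2:**
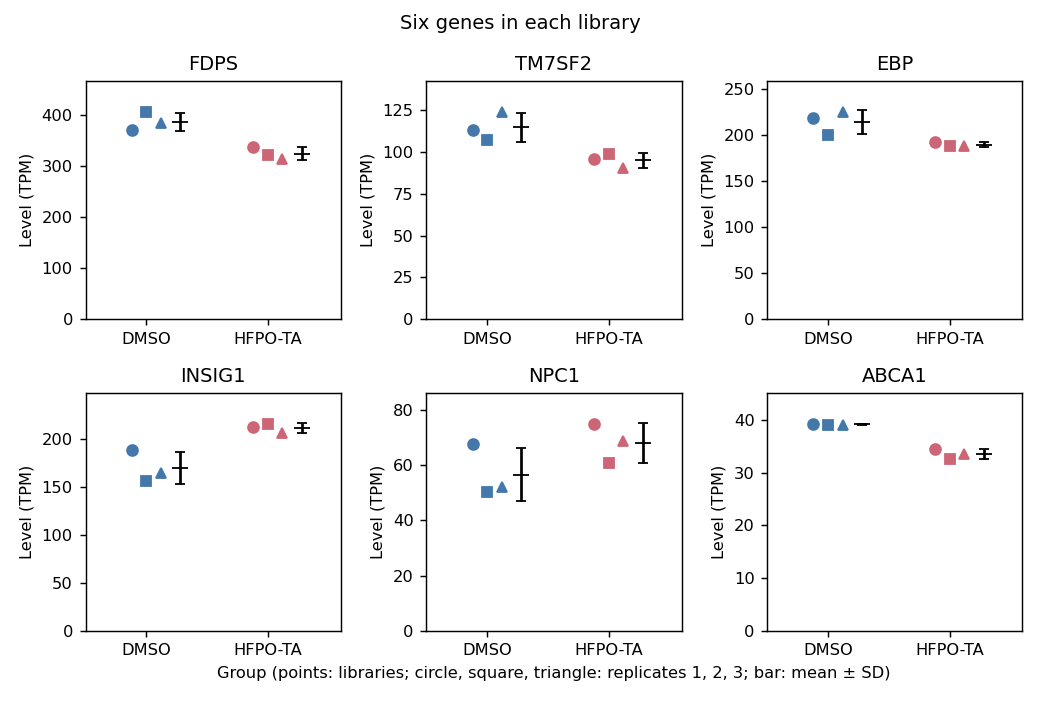
Level (TPM, axes from 0) of FDPS, TM7SF2, EBP, INSIG1, NPC1 and ABCA1 in each library, with the mean ± SD of 3 libraries beside the points. FDPS, TM7SF2, EBP and ABCA1 lay lower in each HFPO-TA library than in each DMSO library and INSIG1 lay higher, while the NPC1 groups overlapped; none passed the test.

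The 7 genes of uptake, transport and storage had a median of 0.01, with 4 above 0 and 3 below. SOAT2, which esterifies cholesterol for lipoproteins and storage, stood at 59.8, 59.6 and 60.3 TPM with DMSO and at 54.9, 55.5 and 48.7 with HFPO-TA. It was the 1 gene of this role whose groups did not overlap (-0.17, SE 0.07, limma's adjusted p = 0.399). NPC1, which moves cholesterol out of lysosomes, stood at 67.7, 50.2 and 52.0 TPM with DMSO and at 75.0, 60.7 and 68.8 with HFPO-TA (0.27, SE 0.13, limma's adjusted p = 0.451). DMSO replicate 1 of NPC1 lay within the HFPO-TA range, and DMSO replicates 2 and 3 lay below it. NPC1 shares 604 exon bases with RMC1 on the opposite strand, at 11.65 and 13.04 TPM.

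TMEM97, a membrane protein that binds NPC1, stood at 36.1, 34.0 and 37.5 TPM with DMSO and at 38.1, 27.7 and 26.6 with HFPO-TA (-0.23, SE 0.13, limma's adjusted p = 0.56). HFPO-TA replicate 1 of TMEM97 was the highest of the 6 libraries and the other 2 HFPO-TA libraries the lowest, and the gene shares 361 exon bases with IFT20 on the opposite strand, at 75.1 and 84.4 TPM. The log2 fold change of TMEM97 was -0.39 without HFPO-TA replicate 1 and -0.14 without HFPO-TA replicate 3. SCARB1, the receptor for high-density lipoprotein, stood at 265 ± 21.4 and 275 ± 8.76 TPM. STARD4, which carries cholesterol between membranes, stood at 34.4 ± 3.37 and 37.0 ± 2.25 TPM. MYLIP, a ubiquitin ligase that marks lipoprotein receptors for breakdown and an LXR target, stood at 32.7 ± 1.94 and 31.6 ± 5.43 TPM. NPC1L1, the sterol importer of gut and liver surfaces, stood at 4.26, 5.06 and 5.69 TPM with DMSO and at 4.56, 4.96 and 5.57 with HFPO-TA, with nearly the same range.

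Both efflux genes lay below 0, and neither passed the test. ABCA1, which loads cholesterol onto apolipoprotein, stood at 39.3, 39.1 and 39.1 TPM with DMSO and at 34.4, 32.7 and 33.5 with HFPO-TA. The DMSO libraries of ABCA1 differed by less than 1 TPM, and all HFPO-TA libraries lay below them (-0.22, SE 0.07, 95% interval -0.38 to -0.06, limma's adjusted p = 0.254). ABCG1, which passes cholesterol to high-density lipoprotein, stood at 7.51, 5.12 and 5.90 TPM with DMSO and at 6.40, 4.14 and 4.77 with HFPO-TA (-0.24, SE 0.18, limma's adjusted p = 0.689). The groups of ABCG1 overlapped, and replicate 1 was the highest library of each. The log2 fold change of ABCG1 was -0.11 without DMSO replicate 1 and -0.38 without HFPO-TA replicate 1.

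A letter in the value column headers, which the labels do not explain, parts replicate 1 from replicates 2 and 3 in both groups. Of the 32 genes, 21 had the same direction in replicate 1 (1 library a group) and in replicates 2 and 3, against 57.5% of all tested genes. Among the 19 enzymes 9 were higher with HFPO-TA in replicate 1 and 6 in replicates 2 and 3. For FDPS the log2 difference was -0.14 in replicate 1 and -0.31 in replicates 2 and 3, and for INSIG1 it was 0.17 and 0.39. For TM7SF2 these were -0.24 and -0.28, and for ABCA1 -0.19 and -0.23. Of the 11 that differed, HMGCS1, LSS, NSDHL, HSD17B7, CYP51A1, MYLIP, TMEM97 and NPC1L1 lay above 0 in replicate 1 and below 0 in replicates 2 and 3, and PMVK, GGPS1 and SCARB1 lay the other way round; these differences were not tested. With a term for the letter limma called 0 of the 32, against 1.32% of all genes, with adjusted p of 0.0669 for INSIG1 and 0.0792 for FDPS. Replicates 2 and 3 alone called 1 of the 32, INSIG1 (adjusted p = 0.0474, limma), against 1.42% of all genes.

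**Figure D3:**
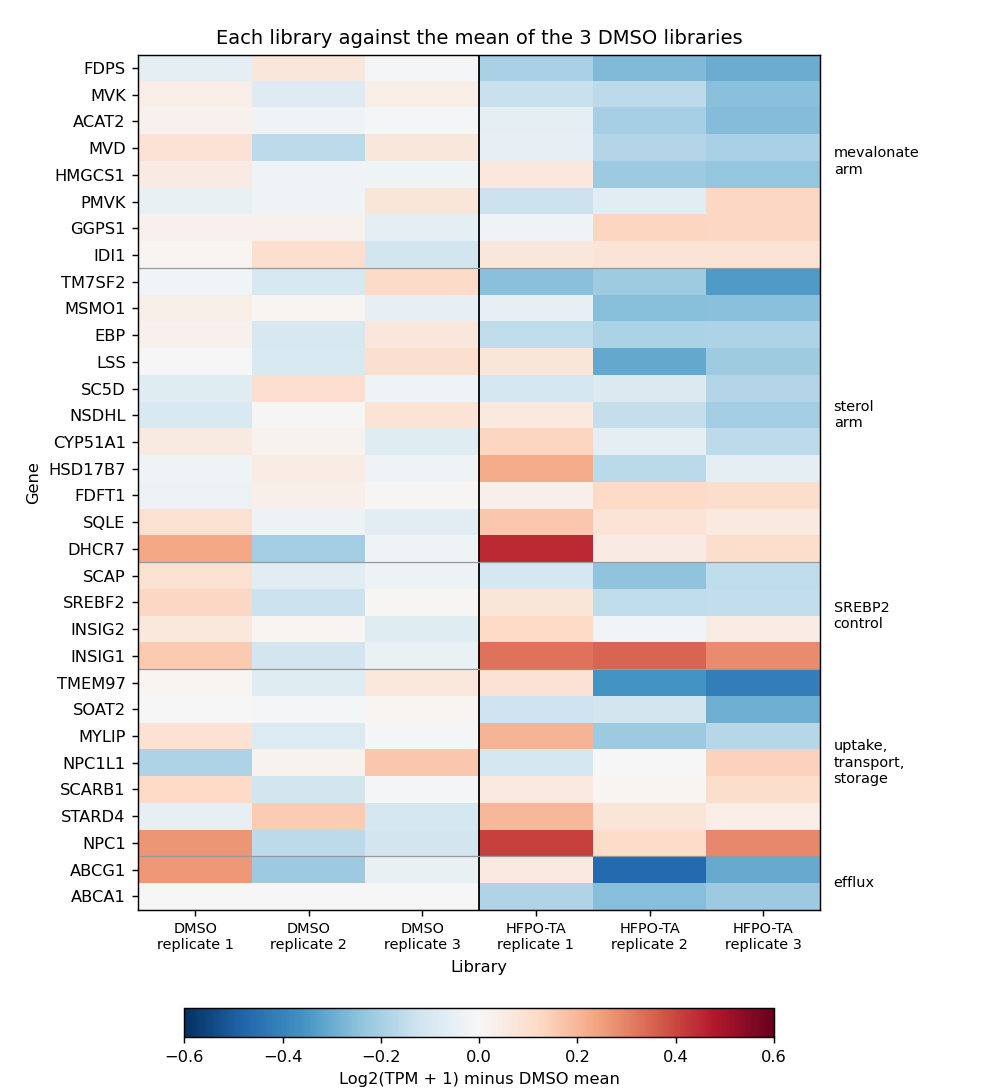
Log2(TPM + 1) of each gene in each library minus the mean of the 3 DMSO libraries (colour scale from -0.6 to 0.6), grouped by role. Replicates 2 and 3 of HFPO-TA are blue for most enzymes, replicate 1 of HFPO-TA is paler or red for several, and INSIG1 is red in all 3.

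Other genes of the pathway were taken from a list of 43 that holds none of the 32. All 43 were in the files, 40 passed the filter, and 0 were called by limma, against 0.492% of all genes; unadjusted p was under 0.05 for 8 of the 40, 5 higher and 3 lower, against 12.0% of all genes (5.45% higher and 6.56% lower). Their median log2 fold change was -0.003, with 19 above 0 and 21 below. The 3 smallest p belonged to LPCAT3, LIPA and ACAT1. LPCAT3, a phospholipid-remodelling enzyme and LXR target, stood at 70.3, 64.0 and 72.2 TPM with DMSO and at 102, 89.1 and 103 with HFPO-TA, without overlap (0.51, SE 0.08, limma's adjusted p = 0.0519). LIPA, the lysosomal lipase that frees cholesterol from its esters, stood at 189, 213 and 187 TPM with DMSO and at 246, 285 and 278 with HFPO-TA (0.45, SE 0.08, limma's adjusted p = 0.063). ACAT1, the mitochondrial thiolase, which serves ketone metabolism rather than sterol synthesis, stood at 54.8, 59.7 and 54.1 TPM with DMSO and at 71.5, 91.3 and 95.6 with HFPO-TA (0.60, SE 0.11, limma's adjusted p = 0.0742). All 3 lay higher in each HFPO-TA library than in each DMSO library.

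GRAMD1B and SREBF1 were chosen after their values were seen. GRAMD1B, which moves cholesterol from the plasma membrane to the endoplasmic reticulum, stood at 85.2, 74.3 and 79.7 TPM with DMSO and at 66.2, 51.3 and 52.5 with HFPO-TA (-0.49, SE 0.11, limma's adjusted p = 0.114). SREBF1, which encodes the SREBP form best known for fatty acid synthesis, stood at 17.5, 16.6 and 15.9 TPM with DMSO and at 22.0, 22.2 and 20.8 with HFPO-TA (0.36, SE 0.09, limma's adjusted p = 0.133), while SREBF2 overlapped between the groups. With a term for the column-header letter LPCAT3, LIPA, ACAT1 and GRAMD1B passed (adjusted p = 0.0398, 0.0279, 0.0321 and 0.0279, limma). That fit called 1.32% of all genes, and SREBF1 did not pass in it (limma's adjusted p = 0.0787).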

How the data were processed

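Values were deposited by the authors as 1 number per gene and library. The column headers call them FPKM, but each column sums to between 995690 and 996186, so the deposited values were read as TPM. Per the submitters' processing notes the build was GRCh38.p13 and the tools were HISAT, RSEM and Bowtie2, with no version or role. Annotation, strand and depth: not given in the sources used here. The 32 genes, the lists and the tests were chosen with earlier results of these data known.

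A count test was planned for count files; for TPM, limma 3.58.1 (R 4.3.3) was fitted to log2(TPM + 1) with treatment as the only term and a trended, robust variance, on the 15664 genes at 1 TPM or more in 3 libraries or more. P-values are 2-sided and Benjamini-Hochberg adjusted over all of them, and an adjusted p under 0.05 was called. Folds on this scale understate changes of low genes. The fit was tested on simulated data. Values in the text are TPM of each library or mean ± SD (n = 3).

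All 32 genes are named; SE and adjusted p go to any called gene, to the 3 with the smallest p in each role, and to a few more. Positions are from GENCODE 29. Near-identical transcripts (95% over 200 bases) were sought with blastn 2.17.0. Promoters are from RefSeq. Figures used matplotlib 3.10.9. Alternatives covered the pseudocount, filter, variance, scaling, replicate block, column-header letter and each library left out.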

Additional observations from a re-analysis of the deposited data

How the results depend on the processing

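Across 16 alternatives 27 of the 32 cholesterol genes kept their direction, and 0 were called except INSIG1 with replicates 2 and 3 only (1 of 32; log2 fold change 0.394) and MSMO1 without HFPO-TA replicate 1 (1 of 32), so that leaving out 1 library gave from 0 to 1. The median of the synthesis enzymes (-0.122) stayed below 0, from -0.176 to -0.0746 with 1 library left out. Its spread between libraries was an SD of 0.0618. That SD comes from the same libraries, so setting the moves against it cannot show stability. Genes without overlap numbered 11, with 12 to 22 when 1 library was left out and 26 with replicates 2 and 3 only; fewer libraries overlap less by construction. Over all genes 77 were called, against 11 with neither trend nor robust variance and 10 without a filter. Scaling to the upper quartile gave 17 and scaling by median ratios 30. Replicates 2 and 3 only gave 222, and the term for the column-header letter gave 207. Leaving out 1 library gave 6 to 291, the extremes being HFPO-TA replicates 2 and 1; beyond the fewer libraries the cause was not tested.

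Leaving out 1 library moved the log2 fold change by over 1.5 times for 20 of the 32 genes, none called in the fit on all libraries, and not for 12 (FDPS, ACAT2, MVK, TM7SF2, EBP, MSMO1, FDFT1, SQLE, INSIG1, SCAP, NPC1 and ABCA1). Directions turned for 5 genes near 0, none called. PMVK was at 0.0042 with replicates 2 and 3 only, and from -0.099 to 0.027 with 1 library left out. HSD17B7 was at 0.017 with median-of-ratios and 0.021 with upper-quartile scaling, and from -0.112 to 0.082 with 1 library left out. NPC1L1 was at -0.025 with replicates 2 and 3 only, and from -0.082 to 0.092 with 1 left out. CYP51A1 ran from -0.110 to 0.033 and MYLIP from -0.194 to 0.017 with 1 left out.

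Replicate numbers were not treated as pairs: deviations of same-numbered libraries correlated at 0.184, 0.123 and 0.028, and HFPO-TA replicate 3 correlated better with DMSO replicate 2 (0.068). With the replicate block 30 genes were called over all genes and 0 of the 32, where INSIG1 had an adjusted p of 0.148 and FDPS of 0.15 (limma). None of the 40 other pathway genes was called with the block, where LPCAT3, LIPA, ACAT1 and GRAMD1B had adjusted p of 0.0535, 0.0636, 0.0909 and 0.0777 (limma).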
